A study of Homo sapiens with 6 samples.

Results

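The COPII coat forms the vesicles that carry newly made proteins out of the endoplasmic reticulum (ER), and its 10 subunit genes are described here across control and DDX5-depleted rhabdomyosarcoma cells. The genes are the GTPase gene SAR1A, the inner coat genes SEC23A, SEC23B, SEC24A, SEC24B, SEC24C and SEC24D, and the outer cage genes SEC13, SEC31A and SEC31B. They make up 10 of 35585 genes in the transcript tables and 135 of 188753 transcripts. SEC31A was picked because its transcript usage differed between the groups in an earlier look at the same libraries, so its values are a description and carry no test. The other 9 genes are members by function and were tested.

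The cells were Rh30, an established alveolar rhabdomyosarcoma line that carries the PAX3-FOXO1 fusion. The control group held 3 libraries, labelled as the knockdown control, and the siDDX5 group held 3 libraries of cells in which DDX5, a DEAD-box RNA helicase gene, had been knocked down. All 6 libraries came from the same line and fusion background. The labels give neither the siRNA sequences, nor what the control cells received, nor the time of harvest. The design text calls the replicates biological, and nothing further says how the cultures were separated.

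Assembly of the coat begins when the exchange factor PREB loads the small GTPase SAR1 with GTP and SAR1 enters the ER membrane. SAR1 recruits the inner coat, a SEC23-SEC24 dimer in which SEC23 activates GTP hydrolysis by SAR1 and SEC24 binds the sorting signals of cargo. SEC13 and SEC31 then polymerise into the outer cage. SEC31 is built from a WD40 propeller, a helical solenoid and a proline-rich region that reaches down to SEC23 and SAR1. The cage has to stretch around large cargo such as procollagen, a load that connective tissue cells export in quantity.

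SEC31A, at chr4:82818661-82901166 on the minus strand of GRCh38, has 41 transcripts in the tables. Of these, 13 run across the 3 alternative coding exons described here. A pair of short exons, 39 bases at chr4:82862534-82862572 and 78 bases at chr4:82861631-82861708, lie next to each other and occupy coding positions 1510 to 1548 and 1549 to 1626 of the 3660 coding bases of ENST00000355196.6. Together they add 117 bases. A long exon of 342 bases at chr4:82842140-82842481 occupies coding positions 2627 to 2968. A shorter form of it, 297 bases, ends 45 bases earlier, at chr4:82842185-82842481. The length of each of these exons is a multiple of 3. The sequences across the splice junctions show what separates one SEC31A transcript from the next. Each is 30 bases, read 5′ to 3′ from the GENCODE transcript sequences, with the last 15 bases of the upstream exon in lower case and the first 15 of the downstream exon in capitals. None of the 7 sequences occurs in a transcript of another gene.
Upstream exon to first short exon: gatctaggaaagaagATTGCTTTGGCCTTG
Second short exon to downstream exon: cagctcttgggagagCACATTAAAGAGGAA
Both short exons skipped: gatctaggaaagaagCACATTAAAGAGGAA
Upstream exon to long exon: atccacagccacagcCTTATCAACCAGCCC
Long exon to downstream exon: cgtcccaaagaacagGTCCTCAGAATGGTT
Shorter form of the long exon to downstream exon: ctcctggaacaacagGTCCTCAGAATGGTT
Long exon skipped: atccacagccacagcGTCCTCAGAATGGTT
The sequence for skipping both short exons lies in 6 SEC31A transcripts and joins chr4:82863318 to chr4:82857764. The sequence for skipping the long exon lies in 5 and joins chr4:82844386 to chr4:82829058. The first 15 bases of each skip sequence are those that lead into the skipped exon, and the last 15 are those that lead out of it. A short read over such a junction separates inclusion from skipping, but it does not tie the short exons to the long exon, which lie many exons apart in the transcript.

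The control libraries held 21265569 to 26156858 estimated counts and the siDDX5 libraries 18202402 to 19971888, so every siDDX5 library was the shallower. A level of 3 counts, the smallest regarded as measurable, was 0.115 to 0.165 CPM (estimated counts scaled to a common library total, with TMM factors). DDX5 itself stood at 1356, 1438 and 1141 CPM in control replicates 1, 2 and 3 and at 551, 506 and 397 CPM in the siDDX5 libraries. The log2 fold change was -1.44 (SE 0.15, n = 3 per group, adjusted p = 0.0115). Of the 10 muscle and rhabdomyosarcoma markers, 8 had a mean of at least 5 CPM, and their sum was 1205 to 1643 CPM in control and 1225 to 1367 CPM in siDDX5 cells, with TFAP2B at 0. None of the 5 epithelial or 3 blood markers reached 5 CPM. COL1A1 among 3 fibroblast markers and PECAM1 among 2 endothelial markers did. Over all 15197 genes tested, the quasi-likelihood test of edgeR called 26 (0.171%) at an adjusted p under 0.05, and the median log2 fold change was -0.0017.

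DDX5 knockdown left the 9 tested COPII genes without a called change. None of the 9 passed the adjusted threshold, against 0.171% of all genes. DESeq2 also called 0 of 9, against 304 of the 15197 genes. With the replicate number as a blocking term, edgeR called 0 of 9 as well, against 2.51% of all genes. Without the block, 0 of 9 had an unadjusted p under 0.05, against 11.3% of all genes. Their log2 fold changes ran from -0.24 to 0.27 with a median of -0.01. Of all 10 members, 2 had groups that did not overlap in CPM, SAR1A higher and SEC31A lower in siDDX5 cells, and 18.1% of all genes were separated in either direction (8.84% higher and 9.21% lower).

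**Figure D1:**
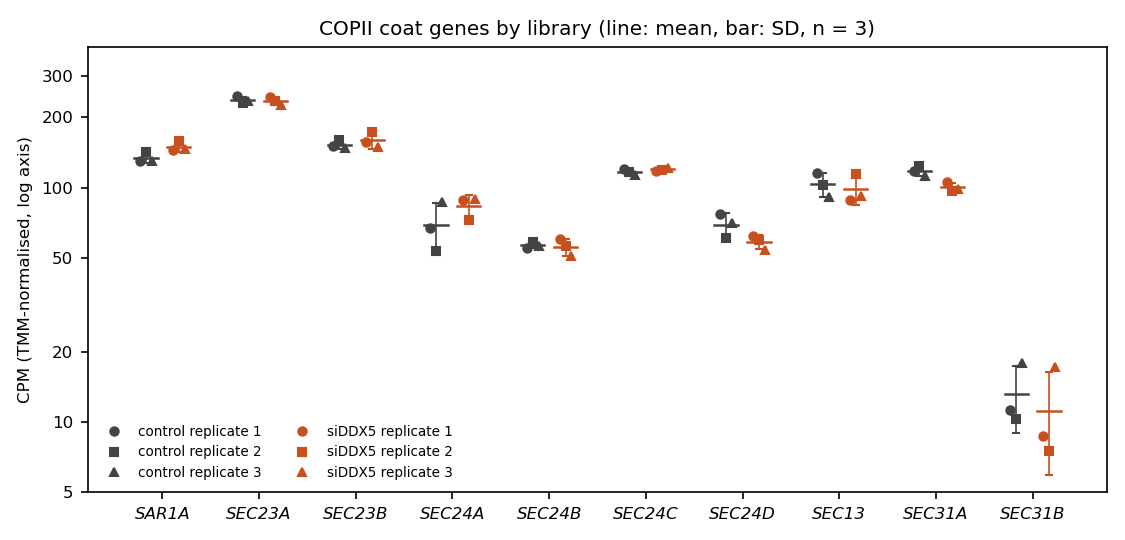
Level of each COPII gene in each library, in TMM-normalised CPM on a log axis, with control libraries in grey and siDDX5 libraries in orange (symbols mark the replicate, lines the mean and bars the SD of 3 libraries). SAR1A lay higher and SEC31A lower in all 3 siDDX5 libraries than in any control library, and the groups overlapped for the other 8 genes.

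SAR1A, the GTPase that starts coat assembly (chr10:70147289-70170523, minus strand), was at 129.9, 142 and 130.5 CPM in control and 145, 158 and 147 CPM in siDDX5 replicates 1, 2 and 3. The lowest siDDX5 library was therefore above the highest control library. The difference was small, with a log2 fold change of 0.16 (95% interval -0.06 to 0.38), and it did not pass the edgeR test (adjusted p = 0.57). With the replicate block the adjusted p was 0.298. Per length the separation was gone, with 77.7 to 88.7 TPM (the deposited length-corrected measure) in control and 86.7 to 92.7 TPM in siDDX5 libraries. When the TPM values were summed over transcripts of at least 1000 bases, a setting chosen after seeing the data, the groups again did not overlap (69.3 to 74.8 against 74.9 to 80.7 TPM). SAR1A produced almost all its counts from 3 transcripts, ENST00000373238.5, ENST00000373241.9 and ENST00000431664.6, which have 594 coding bases each. ENST00000373238.5 held 70.5% ± 4.79 of the counts in control and 70.4% ± 5.33 in siDDX5 cells (SD, n = 3). ENST00000431664.6 ranged from 0.269% to 11.4% in control and from 0% to 10.2% in siDDX5 libraries, and the groups overlapped.

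The SEC23 genes, whose products complete the active site of SAR1, had log2 fold changes close to 0. SEC23A (chr14:39031919-39109646, minus strand) was at 246, 231 and 236 CPM in control and 245, 235 and 227 CPM in siDDX5 cells, with a log2 fold change of -0.01 (95% interval -0.22 to 0.20, adjusted p = 0.983). SEC23B (chr20:18507482-18561415, plus strand) was at 151, 159.6 and 148 CPM in control and 157, 174 and 149 CPM in siDDX5 cells. Its log2 fold change was 0.07 (95% interval -0.17 to 0.30, adjusted p = 0.854). These intervals bound any change of SEC23A and SEC23B within 0.30 on the log2 scale. SEC23A, mutated in a syndrome of skull and lens defects, supplied 58.1% ± 2.14 of the TPM of the pair in control and 56.2% ± 1.98 in siDDX5 cells (SD, n = 3). SEC23B, mutated in a congenital dyserythropoietic anaemia, supplied the rest.

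The SEC23 genes differed in how their output was split among transcripts. SEC23A came almost entirely from ENST00000307712.11, at 97.1% ± 0.119 of its counts in control and 97.6% ± 0.682 in siDDX5 cells. SEC23B was divided mainly between ENST00000650089.1 (56.2% ± 1.19 against 53.9% ± 1.37) and ENST00000643747.1 (21.7% ± 1.24 against 22.5% ± 5.43). ENST00000643747.1 uses a form of the exon ending at chr20:18524669 that is 183 bases rather than 237 bases. The shorter form was carried by 21.8% ± 1.27 of the spanning counts in control and 22.7% ± 5.49 in siDDX5 cells.

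The 4 SEC24 genes, which give the coat its choice of cargo, pointed in different directions, and the 95% interval of each included 0. SEC24A (chr5:134648789-134727823, plus strand) had the largest estimate of the 9. Its levels were 67.5, 53.9 and 86.7 CPM in control and 88.8, 72.99 and 89.5 CPM in siDDX5 replicates 1, 2 and 3. Each siDDX5 library was above the control library of the same number, but the groups overlapped because control replicate 3 was above siDDX5 replicate 2. The estimate was 0.27 on the log2 scale (95% interval -0.11 to 0.65, adjusted p = 0.583), and 0.29 when replicate numbers were blocked (adjusted p = 0.148). SEC24B (chr4:109433772-109540896, plus strand) was at 55.6, 58.6 and 56.7 CPM in control and 60.6, 56.4 and 51.2 CPM in siDDX5 cells, a log2 fold change of -0.02 (95% interval -0.26 to 0.21, adjusted p = 0.959).

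SEC24C (chr10:73744384-73772161, plus strand) was the steadiest member by library, at 120.0, 117 and 114 CPM in control and 118, 119.7 and 122 CPM in siDDX5 cells. Its log2 fold change was 0.03 (95% interval -0.17 to 0.24, adjusted p = 0.922). SEC24D (chr4:118722823-118838683, minus strand), mutated in a form of brittle bone disease, was at 77.5, 60.9 and 70.5 CPM in control and 62.6, 59.95 and 54.4 CPM in siDDX5 cells. Again each siDDX5 library lay on the same side of its same-numbered control, here below it, and the groups overlapped. SEC24D had a log2 fold change of -0.24 (95% interval -0.51 to 0.03, adjusted p = 0.49), and the block gave an adjusted p of 0.208. With the block, SEC24A and SEC24D were the 2 tested members that had an unadjusted p under 0.05, and 20.4% of all genes did.

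**Figure D2:**
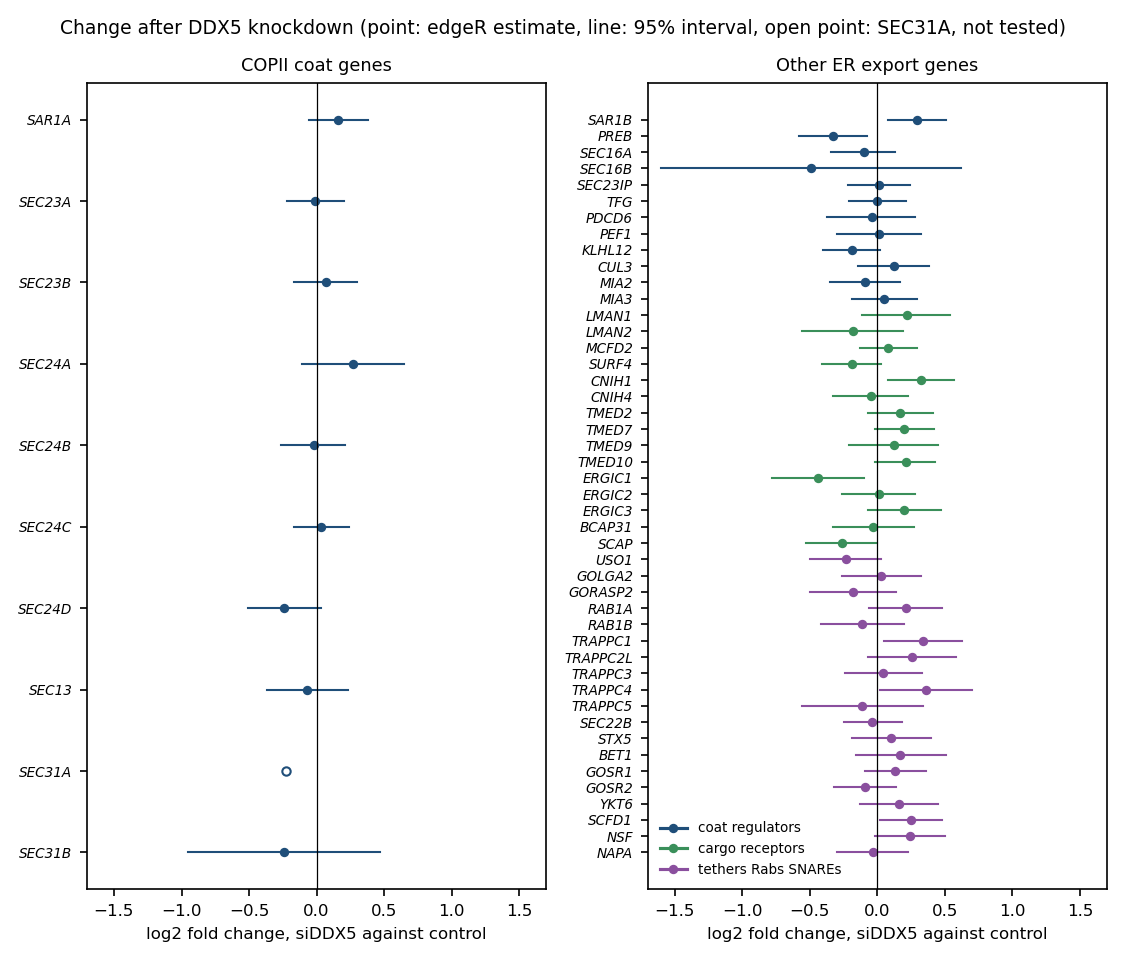
Log2 fold change of siDDX5 against control for the COPII genes (left) and 46 other genes of ER export (right), as points with 95% intervals from the edgeR fit, coloured by role. SEC31A is an open point with no interval because it was chosen from this contrast. The COPII estimates lie between -0.24 and 0.27, and the widest interval among them is that of SEC31B.

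Per length, the group means of the SEC24 paralogs had the same order in control and siDDX5 cells, although neighbours in that order changed places in single libraries. In control cells SEC24C supplied 31.6% ± 2.71 of the summed SEC24 TPM, SEC24D 28.2% ± 2.4, SEC24A 20.5% ± 3.7 and SEC24B 19.8% ± 0.949 (SD, n = 3). In siDDX5 cells the shares were 31.7% ± 1.48 for SEC24C, 25.6% ± 1.52 for SEC24D, 23.8% ± 2.41 for SEC24A and 18.9% ± 1.77 for SEC24B. The groups overlapped for each of the 4. The SEC23 pair together stood at 1.9 ± 0.0797 times the TPM of the SEC24 genes in control and at 1.91 ± 0.0997 times in siDDX5 cells.

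**Figure D3:**
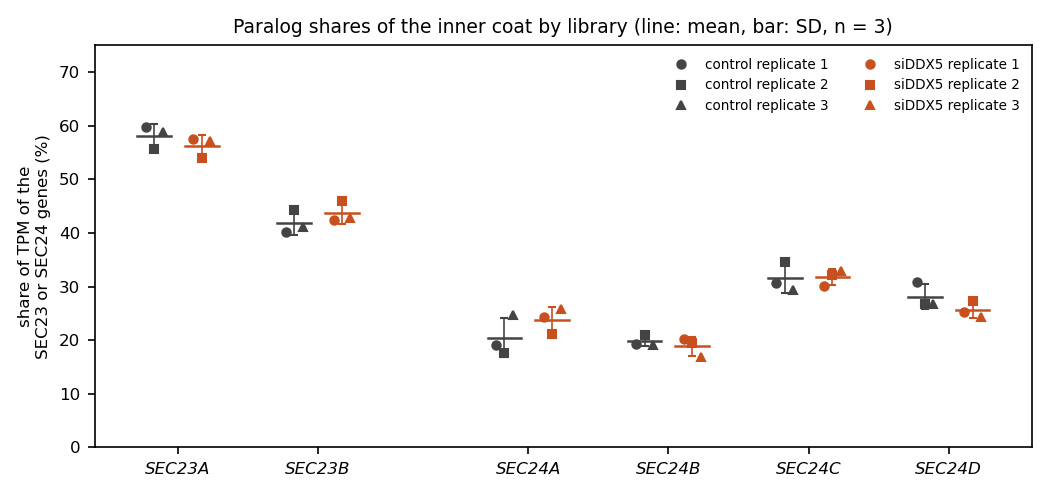
Share of each SEC23 gene in the TPM of the SEC23 pair, and of each SEC24 gene in the TPM of the 4 SEC24 genes, in percent for each library (grey control, orange siDDX5, line for the mean, bar for the SD of 3 libraries). Control and siDDX5 libraries overlap for all 6 genes, with SEC23A near 58.1% and 56.2% and SEC24C near 31.6% and 31.7%.

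Of the 10 SEC24 transcripts that held at least 5% of the counts of their gene, 2 took shares that did not overlap between the groups, and neither passed the test. Over all genes, 14.6% of such transcripts had groups that did not overlap. SEC24B is read from 3 transcripts. ENST00000504968.6, the transcript with a 93-base exon at chr4:109449417-109449509, held 20.1%, 16.6% and 14.3% of SEC24B counts in control replicates 1, 2 and 3 and 13.3%, 10.8% and 13.5% in the siDDX5 libraries. The groups did not overlap, and as a transcript it had a log2 fold change of -0.43 (SE 0.21, adjusted p = 0.752). In SEC24D, ENST00000511481.5 held 11.95%, 11.9% and 7.36% in control and 12.4%, 27.3% and 21.5% in siDDX5 libraries. These groups did not overlap either, although siDDX5 replicate 1 was level with the control libraries, and the log2 fold change was 0.77 (SE 0.35, adjusted p = 0.734). The main SEC24D transcript, ENST00000280551.11, held 78.5% ± 4.06 in control and 69.6% ± 7.42 in siDDX5 cells, with overlap. SEC24A came from ENST00000398844.7 at 95.2% ± 2.47 and 96.5% ± 0.693. In SEC24C, ENST00000345254.9 held 58.6% ± 8.48 and 63.8% ± 4.89, and the nonsense-mediated decay transcript ENST00000465076.5 18.3% ± 7.57 and 13.04% ± 1.72.

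Part of the SEC24A gene faces SAR1B, the paralog of SAR1A. The genes are read from opposite strands, and their loci share 483 bases. SAR1B was at 66.97, 71.7 and 72.1 CPM in control and 87.4, 85.4 and 85.5 CPM in siDDX5 cells, and all siDDX5 libraries were higher than all control libraries. The log2 fold change of SAR1B was 0.29 (SE 0.09), the adjusted p was 0.288, and with the block it was 0.0922. The library kit marked strand, and whether the quantification used it is not given in the sources used here, so reads from the shared stretch cannot be told apart.

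SEC13, the smaller outer cage subunit and also a part of the nuclear pore (chr3:10293131-10321178, minus strand), was at 116, 103 and 91.8 CPM in control and 89.2, 115 and 91.9 CPM in siDDX5 cells. The libraries varied as much within each group as between them. SEC13 had a log2 fold change of -0.07 (95% interval -0.37 to 0.23, adjusted p = 0.889). Its main transcript, ENST00000350697.8, held 74.2% ± 3.95 of the counts in control and 76.1% ± 2.37 in siDDX5 cells.

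SEC31B, the minor SEC31 paralog (chr10:100486642-100519864, minus strand), was at 11.2, 10.3 and 17.9 CPM in control and 8.72, 7.55 and 17.1 CPM in siDDX5 cells. Replicate 3 was the highest library in both groups. The log2 fold change was -0.24 with a wide interval (-0.95 to 0.47, adjusted p = 0.823 in edgeR), and each siDDX5 library was below the control library of its number. With the replicate block SEC31B was at -0.28 (unadjusted p = 0.0581, adjusted p = 0.262 in edgeR). Little of SEC31B was annotated as coding. Transcripts with a retained intron held 42.0% ± 0.414 of its counts in control and 35.4% ± 8.7 in siDDX5 cells, and transcripts annotated for nonsense-mediated decay held 48.0% ± 4.26 and 51.99% ± 10.8. The coding transcript ENST00000370345.8 held 9.19% ± 4.23 and 10.9% ± 1.03. The retained-intron transcript ENST00000484848.5 was at 33.8, 37.6 and 66.0 estimated counts, not scaled for depth, in control and 25.0, 7.4 and 4.7 in siDDX5 libraries. Its log2 fold change was -1.57 (SE 0.62, adjusted p = 0.688). Its shares of SEC31B counts overlapped, at 11.8%, 17.01% and 15.3% in control and 14.2%, 5.28% and 1.52% in siDDX5 libraries. Shares of ENST00000485800.6, also with a retained intron, did not overlap, at 5.84%, 2.54% and 5.82% against 6.96%, 5.87% and 6.87% (log2 fold change 0.16, SE 0.61, adjusted p = 0.976). Over all genes, 14.6% of transcripts holding at least 5% of their gene's counts did not overlap. Another gene on the same strand, AL133352.1, shares 14237 bases of the SEC31B locus and averaged 2.6 CPM. Its exons cover 1464 of the 7938 exonic bases of SEC31B, so reads of the 2 genes can be confused within those bases.

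Among transcripts of the 9 tested genes, 50 were tested singly and 0 were called. Over all 60818 transcripts tested, 0% were called. Of the 50, 1 (ENST00000484848.5) had an unadjusted p under 0.05, against 7.11% of all transcripts. DESeq2 called 0 transcripts of the 9 genes, and its share over all transcripts is not given here. In the test of transcript usage within a gene, 0 of 9 genes were called and 0 had an unadjusted p under 0.05, and the background was 1.58% called and 5.41% with an unadjusted p under 0.05. All 9 adjusted p-values for usage were 1.

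SEC31A had the highest mean TPM of the 10 genes in both groups, but most of that rested on short transcripts, and in siDDX5 replicate 2 SEC13 was above it (117 against 115 TPM). It stood at 144, 160.0 and 139 TPM in control and 149, 115 and 125 TPM in siDDX5 replicates 1, 2 and 3. Summed over transcripts of at least 1000 bases, it was at 51.8, 52.4 and 46.03 TPM in control and 50.8, 41.8 and 41.7 TPM in siDDX5 cells, 33.9% ± 1.72 of the control total. A single 541-base transcript, ENST00000506495.5, held 35.2%, 41.9% and 39.9% of SEC31A TPM in control and 44.1%, 35.8% and 42.1% in siDDX5 libraries, although only 9.22% ± 1.01 and 10.1% ± 1.21 of its counts. Of its 541 exonic bases, 457 lie in exons of THAP9-AS1, an RNA gene on the same strand. None of the quantified transcripts was joined to THAP9-AS1, so its reads over these bases could be credited to this SEC31A transcript. How many were was not tested. By counts, SEC31A was at 118, 124 and 112 CPM in control and 106, 96.6 and 98.7 CPM in siDDX5 cells. Every siDDX5 library was below every control library, and 9.21% of all genes were separated in that direction. The log2 fold change was -0.23 (SE 0.10). In TPM the groups overlapped, both over all transcripts and over those of at least 1000 bases.

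The proportions of the outer cage genes depended on which transcripts were summed. With all transcripts, SEC31A supplied 96.4% ± 1.46 of SEC31 TPM in control and 96.3% ± 1.32 in siDDX5 cells, and SEC13 stood at 0.769 ± 0.0621 and 0.826 ± 0.147 times the SEC31 total. With transcripts of at least 1000 bases the SEC31A share was 91.3% ± 3.31 and 92.2% ± 3.65, and the SEC13 ratio was 1.89 ± 0.16 and 2.03 ± 0.338. The groups overlapped in each of these 4 measures. With all transcripts, the order of TPM over the whole coat in control cells, after SEC31A, was SEC23A (127 to 138), SEC13 (107 to 125), SEC23B (92.9 to 101), SAR1A (77.7 to 88.7), SEC24C (36.8 to 39.99), SEC24D (31.02 to 37.7), SEC24A (20.4 to 30.9), SEC24B (23.5 to 24.1) and SEC31B (3.93 to 7.68). Of these neighbours, SEC24C and SEC24D overlapped between libraries, and so did SEC24A and SEC24B. With transcripts of at least 1000 bases SEC31A did not come first. It averaged 50.1 TPM in control, below SEC23A (127), SEC13 (104), SEC23B (91.97) and SAR1A (71.3).

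By counts, 1 SEC31A transcript led, beside several near-identical ones. ENST00000348405.8, which lacks both short exons and keeps the long exon, was the leading transcript, with 30.1%, 32.8% and 30.1% of SEC31A counts in control replicates 1, 2 and 3 and 22.1%, 19.3% and 31.3% in the siDDX5 libraries. The siDDX5 replicates 1 and 2 were lower and replicate 3 was level with the controls. Of SEC31A TPM it held 10.3%, 10.7% and 10.4% in control and 6.9%, 6.13% and 10.2% in siDDX5 libraries, without overlap. ENST00000508502.5, which keeps both short exons and the shorter form of the long exon, held 13.3%, 12.2% and 16.8% in control and 11.3%, 4.71% and 13.4% in siDDX5 libraries, again with overlap.

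The clearest contrast was ENST00000513858.5, which lacks all 3 exons. It was listed at 0 estimated counts in each control library and at 155.2, 178.3 and 214.3 in siDDX5 replicates 1, 2 and 3. That was 7.24%, 10.03% and 11.98% of SEC31A counts, and 2.53%, 3.56% and 4.39% of SEC31A TPM. ENST00000443462.6 went the other way, with 65.1, 56.5 and 26.8 estimated counts in control and 0 in each siDDX5 library. It keeps both short exons and the shorter form of the long exon. ENST00000505984.5 was listed at 0 in all libraries except siDDX5 replicate 2, which held 64.7 estimated counts.

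Of 18 SEC31A transcripts that averaged 20 counts or more in 1 of the groups, these 3 were under 1 count throughout the other group. SEC31A was chosen for its transcript usage in these libraries, so nothing is read from that number beside the 1.01% found over all transcripts. The other 9 genes held 41 transcripts at that level and 0 of this kind. Zeros of this kind stand beside neighbours that compete for the same reads. ENST00000513858.5 has 0 words of 31 bases, the length kallisto matches by default, that are found in no other transcript of the annotation. The same is true of ENST00000348405.8, ENST00000508502.5, ENST00000509142.5, ENST00000395310.7 and ENST00000311785.11, among 13 of the 41 SEC31A transcripts. Such a transcript receives counts only through combinations of exons that it shares, piece by piece, with others. ENST00000443462.6 has 25 words of its own.

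Sums of each such transcript with its near-identical neighbours are given as a description. Percent shared is the exonic bases shared divided by the exonic bases in either transcript. Only 4, 1 and 17 exonic bases of ENST00000513858.5 are absent from ENST00000509142.5, ENST00000311785.11 and ENST00000348405.8. By percent shared its closest neighbour is ENST00000500777.6 (97.9%), which was at 0 in all 6 libraries, so their sum was unchanged. The next neighbour of ENST00000513858.5 (95.3% shared) is ENST00000509142.5, which holds the short exons and lacks the long exon. Together these were at 3.11% to 10.2% of SEC31A counts in control and 13.8% to 20.4% in siDDX5 libraries, still without overlap. With ENST00000311785.11 (94.3% shared), the sums were 7.84%, 3.09% and 9.24% against 16.8%, 17.6% and 13.5%. With the leading transcript ENST00000348405.8 (91.1% shared), a sum added after seeing the data, the groups overlapped, at 30.1%, 32.8% and 30.1% in control and 29.4%, 29.4% and 43.2% in siDDX5 libraries. The groups were therefore apart in the sums with ENST00000509142.5 and ENST00000311785.11 and overlapped with the most abundant neighbour. The sum with ENST00000500777.6 only repeats ENST00000513858.5, which was singled out by its 0 in the controls, so these sums do not test its separation.

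For ENST00000443462.6 the sum with ENST00000448323.5, its closest neighbour by shared exonic bases, did not overlap, at 3.64%, 2.12% and 0.998% in control and 0 in each siDDX5 library. ENST00000448323.5 was itself at 0 in each siDDX5 library, and ENST00000443462.6 was singled out by its 0 there. This sum therefore does not test the separation. The sum of ENST00000443462.6 with ENST00000395310.7 (94.9% shared) overlapped, at 9.12%, 5.6% and 7.2% in control and 3.5%, 8.64% and 1.7% in siDDX5 libraries. With ENST00000348405.8 (93.1% shared) the groups overlapped too. ENST00000505984.5 overlapped between the groups already alone, since 2 siDDX5 libraries were also at 0, and its sum with ENST00000508502.5 (94.6% shared) was at 13.3%, 12.2% and 16.8% against 11.3%, 8.35% and 13.4%.

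The transcripts can also be summed by which of these exons they contain. The 3 exons are the coding exons of ENST00000355196.6 that ENST00000513858.5 lacks, so these sums are not independent of that transcript. The 13 transcripts that run across both regions held 66.5% to 74.3% of SEC31A counts in the 6 libraries. Those without the long exon made up 15.6%, 19.1% and 22.4% of these counts in control replicates 1, 2 and 3 and 36.8%, 32.2% and 30.5% in the siDDX5 libraries. The means were 19.01% ± 3.37 and 33.2% ± 3.3 (SD, n = 3), and by TPM they were 19.6% ± 3.4 and 34.8% ± 3.2. In both units all siDDX5 libraries were above all control libraries. The shorter form of the long exon was lower in all siDDX5 libraries, at 23.8%, 22.6% and 26.3% in control and 18.4%, 14.6% and 21.5% in siDDX5 cells. Its means were 24.2% ± 1.89 and 18.1% ± 3.46. Among these 13 transcripts the full long exon had the larger difference in means but overlapped between the groups, at 56.8% ± 4.79 and 48.7% ± 4.26.

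The difference between these means lay in transcripts that also lack the short exons. Transcripts without the long exon but with both short exons averaged 19.01% ± 3.37 in control and 18.97% ± 6.29 in siDDX5 cells. Transcripts without any of the 3 exons were at 0 in control and at 10.9%, 15.1% and 16.6% in siDDX5 replicates 1, 2 and 3. They are ENST00000513858.5 and ENST00000500777.6, the latter at 0 in all 6 libraries. These values therefore restate those of ENST00000513858.5 over a smaller total. Taken alone, among the transcripts spanning both regions, the absence of both short exons was at 44.7%, 49.1% and 42.9% in control and 45.5%, 51.7% and 62.9% in siDDX5 libraries, where the groups overlapped. The pairing of a short-exon choice with a long-exon choice within 1 transcript was inferred by the quantification from short reads and was not observed directly.

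**Figure D4:**
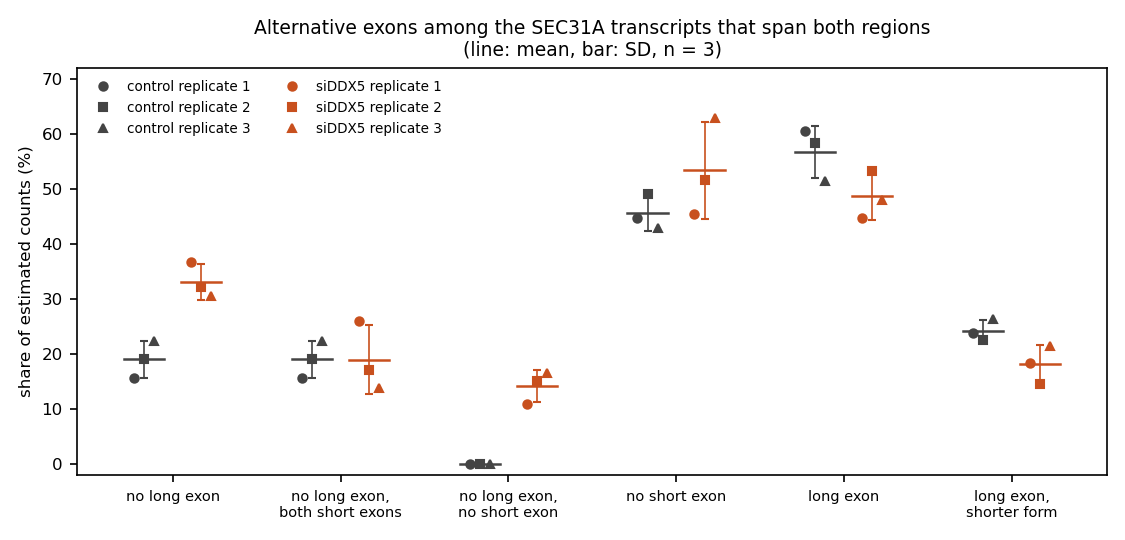
Share of exon combinations among the 13 SEC31A transcripts that span both alternative regions, in percent of their estimated counts for each library (grey control, orange siDDX5, line for the mean, bar for the SD of 3 libraries). Transcripts without the long exon average 19.01% in control and 33.2% in siDDX5 libraries, and those lacking all 3 exons are at 0 in control.

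The difference was smaller over a wider set of transcripts. Over all 15 SEC31A transcripts that cross the long exon and hold it in full, in its shorter form or not at all, those without it made up 15.8%, 18.5% and 22.0% of counts in control and 33.4%, 27.7% and 28.2% in siDDX5 libraries. By TPM the same shares were 22.7%, 20.1% and 23.6% against 29.8%, 23.4% and 26.2%, and the groups overlapped, since siDDX5 replicate 2 was below control replicate 3. The full long exon, over the 16 transcripts across it, averaged 57.6% ± 5.35 of counts in control and 53.2% ± 5.26 in siDDX5 cells. By TPM its direction was reversed, at 53.5% ± 5.47 and 55.9% ± 6.05, with overlap in both units. Over 15 transcripts, its shorter form was lower without overlap by counts (22.8% ± 2.29 against 16.4% ± 3.68). By TPM the shorter form overlapped (20.2% ± 3.33 against 14.3% ± 3.62). A separate 39-base exon at chr4:82830937-82830975, carried by ENST00000503937.5, was in 7.36%, 5.16% and 2.85% of the counts of the 17 transcripts across it in control and in 9.01%, 13.7% and 7.24% in siDDX5 libraries, and the groups overlapped. By TPM they did not, at 14.5%, 10.2% and 6.12% in control and 18.2%, 26.1% and 15.1% in siDDX5 libraries. The second short exon, over the 18 transcripts across it, was lower by TPM in all siDDX5 libraries. Its TPM shares were 51.3%, 49.6% and 53.3% in control and 47.95%, 43.1% and 36.2% in siDDX5 libraries. By counts its groups overlapped. The first short exon, over 17 transcripts, overlapped in both units.

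The other genes of the ER-to-Golgi step also gave no called change. All 46 listed genes were tested and 0 passed, against 0.171% of all genes. Under the block and in DESeq2 0 passed too, against 381 and 304 of the 15197 genes. An unadjusted p under 0.05 was found for 8 (5 higher, 3 lower), against 11.3% of all genes, and for 16 with the block, against 20.4% of all genes. Their median log2 fold change was 0.02, with 27 positive and 19 negative, and 13 of the 46 had groups that did not overlap (8 higher and 5 lower), against 18.1% of all genes. By role, non-overlapping genes were 3 of 12 regulators of the coat, 7 of 15 cargo receptors and 3 of 19 tethers, Rab GTPases and SNAREs.

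The 3 highest and 3 lowest estimates among the ER export genes that averaged 5 CPM or more are given as values, since none passed the test. SEC16B, below that level, had an estimate of -0.49 (95% interval -1.60 to 0.62). ERGIC1, a membrane protein that cycles between the ER and the Golgi, was at 148, 94.8 and 126 CPM in control and 91.8, 88.3 and 91.4 CPM in siDDX5 cells, a log2 fold change of -0.44 (SE 0.15, adjusted p = 0.315). PREB, the exchange factor for SAR1, was at 50.1, 42.0 and 43.9 CPM against 35.03, 36.5 and 36.8 CPM, a log2 fold change of -0.33 (SE 0.11, adjusted p = 0.314). SCAP, which escorts SREBP proteins into COPII vesicles, had a log2 fold change of -0.26 (SE 0.12, adjusted p = 0.439). For each of these 3 genes the siDDX5 libraries were all lower than the control libraries.

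On the other side, CNIH1, a cornichon family cargo receptor, was at 144, 129.9 and 158 CPM in control and 167, 187 and 185 CPM in siDDX5 cells, a log2 fold change of 0.32 (SE 0.11, adjusted p = 0.311). TRAPPC1 and TRAPPC4, core subunits of the TRAPP tethering complex, had log2 fold changes of 0.34 (SE 0.13, adjusted p = 0.36) and 0.36 (SE 0.15, adjusted p = 0.414), and only those of TRAPPC1 did not overlap. KLHL12, the adaptor through which the CUL3 ligase ubiquitinates SEC31, was at 73.4, 80.4 and 75.4 CPM in control and 67.3, 66.7 and 66.99 CPM in siDDX5 cells (log2 fold change -0.19, SE 0.10, adjusted p = 0.493). PDCD6, the calcium sensor that binds SEC31A, differed by -0.04 on the log2 scale (95% interval -0.37 to 0.28, adjusted p = 0.939).

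The genes with a level pattern most like that of SEC31A were NOP9, LARP1, KDM5D, OTX1 and POM121C. Pearson's r of log2 CPM with SEC31A over the 6 libraries was 0.991 for NOP9, 0.990 for LARP1, 0.990 for KDM5D, 0.989 for OTX1 and 0.989 for POM121C, among 10982 genes compared. LARP1, an RNA-binding protein, was at 335, 385 and 325 CPM in control and 278, 231 and 232 CPM in siDDX5 cells. NOP9 was at 60.7, 69.9 and 58.2 CPM in control and 52.8, 45.7 and 45.6 CPM in siDDX5 cells. Like SEC31A, both were highest in control replicate 2, and these likenesses rest on 6 points that share the division into 2 groups.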

How the data were processed

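Per the file headers, each deposited table of the 6 stranded mRNA libraries lists transcripts with their estimated counts, TPM values and lengths. The submitters' processing notes name bcl2fastq 2.20, FastQC 0.11.8, cutadapt 1.11, kallisto 0.46.0 and the builds GRCh38 and hg38. The annotation and the strand setting are not given in the sources used here. The deposited estimated counts were not normalized, and 88.1% to 89.0% of values above 0 were not whole (tolerance 0.01), because the authors' quantifier divides shared reads among transcripts. The deposited TPM values had been scaled for effective length by the authors. The tables hold no estimate of the error of that division, so SD and SE values do not include it.

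Of 188753 transcripts, 169797 were joined to genes by identifier in the GENCODE release 29 primary assembly, 15521 by symbol, and 3435 were left out. All coordinates are GRCh38. Of the 135 member transcripts, 127 had the version of that annotation. Estimated counts were summed per gene, rounded, filtered with filterByExpr, scaled with TMM and tested over all genes in edgeR 4.0.16 under R 4.3.3 (glmQLFit, then glmQLFTest), with the group as the term and Benjamini-Hochberg adjustment. Transcripts were tested likewise, and usage with diffSpliceDGE and Simes p-values. The steps were tested on simulated counts. Shares are of a gene's estimated counts unless TPM is named.

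Replicate numbers come from the titles. Deviations of same-numbered libraries from their group means correlated at 0.21, 0.27 and 0.57 for replicates 1, 2 and 3 over 15197 genes. Correlations of unlike-numbered libraries are not given, so pairing is not established. The fit was also run with the replicate number as a block. Results of edgeR are from the fit without the block unless the block is named. The block lowered the common biological coefficient of variation from 15.8% to 10.4%, and the called genes rose from 26 to 381 of 15197.

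The members, lists and exon groups were chosen with earlier results of these data known. Named were all members, transcripts holding at least 5% of a member's counts, transcripts under 1 count in 1 group and averaging at least 20 in the other, the 3 highest and 3 lowest of the ER export genes at 5 CPM or more, and the 5 genes most correlated with SEC31A. SAR1B, KLHL12 and PDCD6 were named after their values were seen. Alternatives were DESeq2 1.42.0, its size factors, other filters, length-scaled TPM, limma-trend (limma 3.58.1), the block, the primary-assembly join and each library left out.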

Additional observations from a re-analysis of the deposited data

How the results depend on the processing

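The counts of called COPII genes, called COPII transcripts, COPII genes with changed usage and called ER export genes were 0 in every alternative run. The replicate block was among these runs, so it changed no call in these lists. The main run called 0.171% of all genes, 0% of all transcripts and 1.58% of genes for usage. For the alternatives, the share over all features is given only for genes in DESeq2 and under the block. The zeros are therefore not read as a result about the members. At an unadjusted p under 0.05, between 0 and 2 of the 9 COPII genes and between 3 and 16 of the 46 ER export genes passed, the upper ends under the block, where 20.4% of all genes did (11.3% without it). The log2 fold changes of SAR1A, SEC23B, SEC24A, SEC24D and SEC31A kept their sign in all 15 alternatives, at 0.12 to 0.21, 0.00 to 0.13, 0.12 to 0.46, -0.32 to -0.12 and -0.27 to -0.14. The value of -0.14 for SEC31A came from length-scaled TPM counts. With each library left out in turn, SEC31B ran from -0.68 (without siDDX5 replicate 3) to 0.05 (without control replicate 3), SEC13 from -0.19 to 0.03, SEC23A from -0.03 to 0.02 and SEC24B from -0.07 to 0.05. SEC13 was above 0 without control replicate 1 (0.03) and siDDX5 replicate 1 (0.01), SEC23A without control replicate 1 (0.02) and siDDX5 replicate 3 (0.02), and SEC24B without control replicate 2 (0.00301) and siDDX5 replicate 3 (0.05). SEC24C was -0.02 and -0.03 in limma-trend with log2(TPM + 1) and log2(TPM + 0.1). The share of ENST00000513858.5 differed by 9.748 percentage points of SEC31A counts and by 3.498 points of SEC31A TPM, whose total includes the short transcripts. The difference in SEC31A transcripts without the long exon was 14.15 points by counts and 15.14 by TPM among the 13 transcripts spanning both regions, and 11.02 by counts and 4.32 by TPM (with overlap) among all 15 across that exon, a setting chosen after seeing the data. The cause of the sign changes was not tested.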
